A study of Mus musculus with 10 samples.

Results

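The 10 genes described here encode the endothelin pathway and the nitric oxide pathway that act on the tone of blood vessels. They were chosen by name, as candidates in cerebral vasospasm, with earlier results of these data known. All 10 were among the 24391 gene names counted in mouse hippocampus, and all 10 passed the filter on low counts. They comprise the peptide genes Edn1 and Edn3, the processing enzyme gene Ece1, the receptor genes Ednra and Ednrb, the nitric oxide synthase genes Nos1 and Nos3, the cyclase subunit genes Gucy1a3 and Gucy1b3, and the phosphodiesterase gene Pde5a.

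Endothelins are small peptides cut from longer precursors by endothelin converting enzymes. On smooth muscle their receptors drive contraction, while on the endothelium the type B receptor can trigger release of nitric oxide. Nitric oxide, made by synthases in endothelial cells (Nos3) and neurons (Nos1), activates soluble guanylyl cyclase, and the cGMP that this enzyme makes relaxes smooth muscle until phosphodiesterases such as Pde5a break it down. Narrowing of cerebral arteries in the days after a bleed is the setting in which both pathways have been studied.

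Total RNA was sequenced from the bilateral whole hippocampus of 10 male mice, 1 library per mouse, all aged 10 to 14 weeks and of the strain spelled C56BL/6J in the methods of the study. The 4 SAH mice had a subarachnoid hemorrhage from perforation of the circle of Willis on 1 side with a filament under isoflurane, and were kept only if blood flow fell sharply at perforation. In the 3 Sham mice the filament was advanced without puncture, and the 3 Naive mice had no surgery. The tissue of operated mice was taken at day 4, no group was given a drug treatment apart from anesthesia, and no group carried a genetic change. Sham and Naive mice were pooled as the control group of 6, as the study did. The mice are numbered here as in their labels, SAH 1 to 4, Sham 5 to 7 and Naive 8 to 10.

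Each library held 19743388 to 27254655 counts, and no library pair was alike enough to be 1 library deposited more than once. The hippocampal neuron markers, 8 of 8, summed to between 2406 and 2535 CPM (a library's count of a gene divided by its TMM-adjusted depth) in all 10 mice, with a median log2 fold change of -0.01 between SAH and control. SAH mouse 3, SAH mouse 4 and Sham mouse 7 stood apart in choroid plexus markers, which summed to 1242, 874.6 and 841.1 CPM, against 51.4 to 221.6 CPM in the other 7 mice. All 8 of these markers had a positive log2 fold change between SAH and control, with a median of 1.16, but 0 of 8 were called by edgeR or by DESeq2, and 2 had an unadjusted p under 0.05 by edgeR. The comparisons of Edn1 and Nos3 between SAH and control are therefore given with and without these 3 mice. For every gene, the fit without them keeps only SAH mouse 1 and SAH mouse 2 in the SAH group.

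The 10 genes spanned a wide range of levels. Compared per kilobase of exon, since genes differ in length, Gucy1b3 had the highest level of the 10, at 55.3 ± 2.85 CPM per kb (SD, n = 10 mice), and Edn1 the lowest, at 0.648 ± 0.451. Ednrb (15.5 ± 1.38) and Nos1 (14.98 ± 2.34) came next and overlapped with each other, Ednrb being the higher in 5 of 10 mice. Gucy1a3 (9.05 ± 0.908) and Ece1 (8.85 ± 0.736) formed another overlapping pair. The 2 cyclase subunits, which work as a heterodimer, thus stood apart, with no overlap between their ranges. Other cyclase subunit genes, such as Gucy1a2, were not compared per kb, so the balance of subunits cannot be read from this. Pde5a (1.88 ± 0.124), Ednra (1.86 ± 0.207), Edn3 (1.79 ± 0.438) and Nos3 (1.69 ± 0.569) could not be ordered beyond their spread. The range of Edn1 overlapped that of Nos3, but Edn1 was below Nos3 in 10 of 10 mice.

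**Figure D1:**
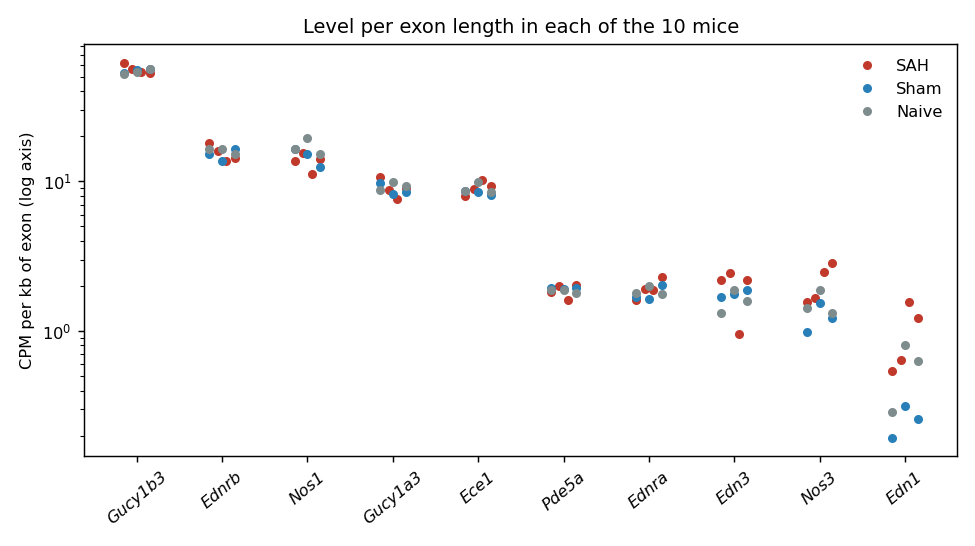
Level of each gene in each of the 10 mice, in CPM per kb of exon on a log axis, with points coloured by group and genes ordered by their mean. Gucy1b3 sits alone at the top, between 51.8 and 62.1, and Edn1 at the bottom, between 0.194 and 1.57, and the points of Edn1 spread more widely than those of Gucy1b3.

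SAH was compared with control to ask whether any of the 10 genes differed in the hippocampus at day 4. By edgeR's quasi-likelihood test at an adjusted p under 0.10, 0 of the 10 genes passed. An unadjusted p under 0.05 was found for 2 of the 10, Edn1 and Nos3, and for 17.0% of all genes tested. DESeq2 called both of these genes higher in SAH, and called 6.42% of the 16124 genes to which it gave an adjusted p. Among all 14993 genes tested, 701 passed with edgeR (4.68%), 470 of them higher and 231 lower in SAH. The median log2 fold change was 0.055 over the 10 genes and -0.002 over all genes tested, and 7 of the 10 were positive. In 0 of the 10 genes were the SAH and control mice free of overlap, against 5.20% of all genes tested.

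**Figure D2:**
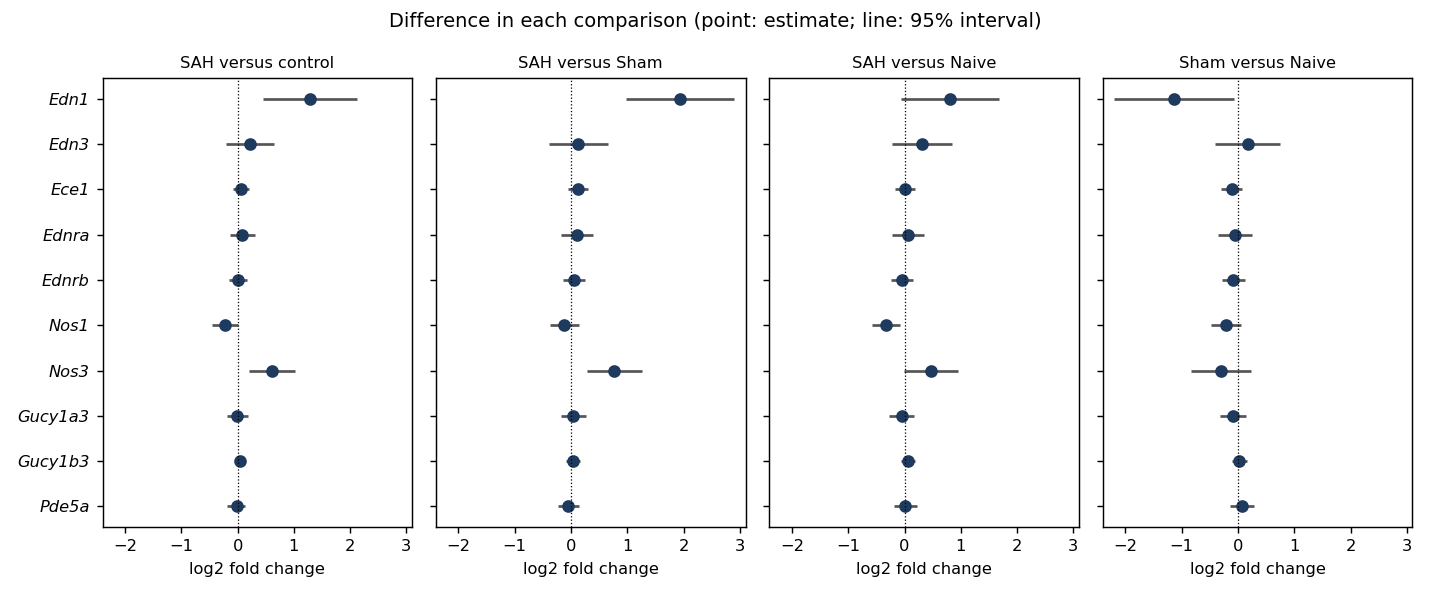
Log2 fold change of the 10 genes with its 95% confidence interval in each comparison, from the edgeR fits across all genes. The estimates for Edn1 and Nos3 lie to the right of 0 against the pooled controls, at 1.28 and 0.62, while those of Ednrb, Gucy1a3, Gucy1b3 and Pde5a lie within 0.05 of it.

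Edn1 encodes endothelin-1, the main vasoconstrictor peptide of the endothelium. In the deposited gene models (mm9) it lies on the plus strand of chromosome 13, from 42396639 to 42403358, with 5 exons. In the SAH mice it was measured at 1.26, 1.51, 3.69 and 2.88 CPM. The Sham mice had 0.454, 0.735 and 0.603 CPM and the Naive mice 0.677, 1.90 and 1.49 CPM. SAH mice 3 and 4 were the highest of all 10, all 4 SAH mice were above all 3 Sham mice, and SAH mice 1 and 2 overlapped with Naive mice 9 and 10.

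These Edn1 levels rest on few reads, from 11 counts in Sham mouse 5 (95% Poisson interval 5.49 to 19.7, counting error only) to 73 in SAH mouse 3. The mean was 2.33 ± 1.15 CPM in SAH (SD, n = 4) and 0.976 ± 0.579 CPM in control (SD, n = 6). The log2 fold change was 1.28 with a standard error of 0.39 and a 95% interval of 0.45 to 2.12, a 2.43-fold difference, and edgeR's adjusted p of 0.107 missed the threshold. With DESeq2, the tool of the study, the log2 fold change was 1.27 and the adjusted p 0.0451. Over all alternatives the adjusted p of Edn1 ran from 0.0451 to 0.765.

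Single mice decided on which side of the threshold Edn1 fell. It passed with edgeR when SAH mouse 1 (log2 fold change 1.48), SAH mouse 2 (1.45) or Naive mouse 9 (1.55) was left out. Without the 3 mice of highest choroid plexus markers, a setting chosen after seeing the data, the log2 fold change dropped to 0.46 and the adjusted p was 0.765. That setting leaves out SAH mouse 3 and SAH mouse 4, the highest of all mice for Edn1, so a drop was built in. With the choroid plexus level as a covariate the log2 fold change was 1.17, with an adjusted p of 0.592.

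Nos3 encodes the endothelial nitric oxide synthase, on chromosome 5 from 23870637 to 23890292, plus strand. Atg9b, transcribed the other way, shares 294 exon bases with it, but reads were assigned by strand. In SAH mice Nos3 was at 6.43, 6.88, 10.2 and 11.7 CPM. In Sham mice it was at 4.04, 6.32 and 5.03 CPM and in Naive mice at 5.90, 7.71 and 5.48 CPM. SAH mice 3 and 4 were again the highest of all 10, and Naive mouse 9 was above SAH mice 1 and 2.

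The mean of Nos3 was 8.79 ± 2.56 CPM in SAH (SD, n = 4) and 5.75 ± 1.24 CPM in control (SD, n = 6). Its log2 fold change was 0.62 with a standard error of 0.19 and a 95% interval of 0.21 to 1.02, and the adjusted p by edgeR was 0.107. DESeq2 gave the same log2 fold change of 0.62 with an adjusted p of 0.0385. With edgeR it passed without SAH mouse 1 (0.74), SAH mouse 2 (0.72) or Naive mouse 9 (0.71). Without the 3 mice of highest choroid plexus markers it dropped to 0.19, with an adjusted p of 0.778, and with the covariate it was 0.56, with an adjusted p of 0.584. Leaving out these mice removes SAH mouse 3 and SAH mouse 4, the highest of all mice for Nos3, so that drop was built in.

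**Figure D3:**
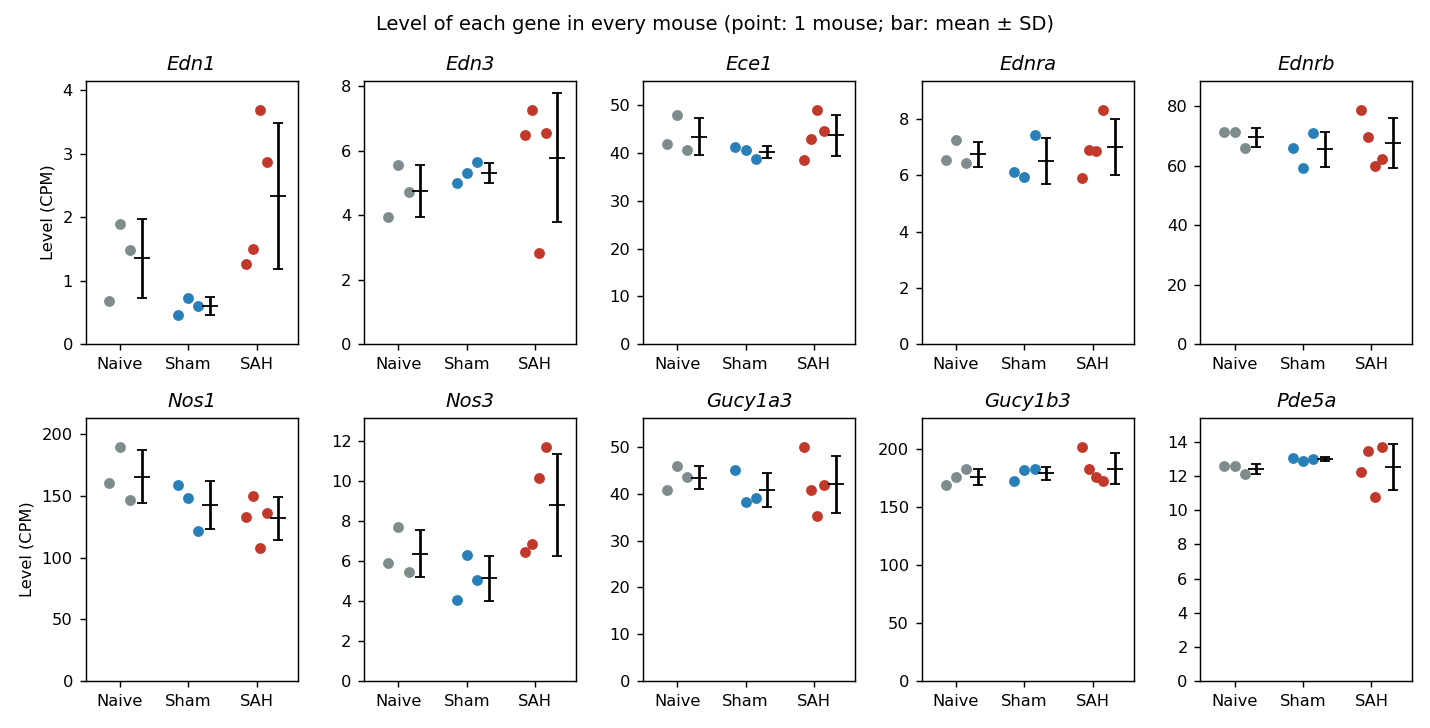
CPM of each of the 10 genes in each mouse, by group, with 1 point per mouse and a bar for the group mean ± SD, each panel on its own axis from 0. For Edn1 and Nos3 the 4 SAH mice lie above all 3 Sham mice, and in the other 8 panels SAH and Sham mice overlap.

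Some markers of vessel cells were called higher in SAH mice. Of 10 endothelial markers, 4 rose in SAH against control by edgeR (Pecam1, Cdh5, Flt1 and Abcb1a) and 0 fell, and all 10 had a positive log2 fold change. Summed over the list, endothelial markers were at 172.4 to 325.4 CPM in SAH, 152.3 to 170.3 in Sham and 154.8 to 206.4 in Naive mice, with SAH mice 3 and 4 the highest. Of 10 mural markers, which stand for pericytes and smooth muscle, 4 rose (Acta2, Tagln, Myh11 and Vtn), and their sum was 196 to 264 CPM in SAH against 146 to 178.2 in control. Of 9 meningeal fibroblast markers, 8 rose, with sums of 198.6 to 373.5 against 140.9 to 188.2 CPM. DESeq2 called 3 of the endothelial, 4 of the mural and 7 of the meningeal fibroblast markers. Over all genes, edgeR called 4.68% of those tested and DESeq2 6.42% of those to which it gave an adjusted p. The part of these cell types in the results for Edn1 and Nos3 was not tested, and in bulk tissue more cells of a type and more RNA per cell cannot be told apart.

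Set against the summed endothelial markers of the same mouse, the 2 genes differed in pattern. Nos3 per 1000 CPM of endothelial markers was 37.3, 33.1, 38.7 and 36.0 in SAH, 26.6, 37.1 and 33.0 in Sham and 38.2, 37.4 and 33.7 in Naive mice. The SAH and Naive mice thus covered nearly the same range, and Sham mouse 5 was the lowest of all 10. Edn1 on the same scale was 7.29, 7.25, 14.04 and 8.84 in SAH, 2.98, 4.32 and 3.96 in Sham and 4.37, 9.22 and 9.14 in Naive mice. All SAH mice remained above all Sham mice for Edn1, and 3 of the 4 lay within the Naive range.

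**Figure D4:**
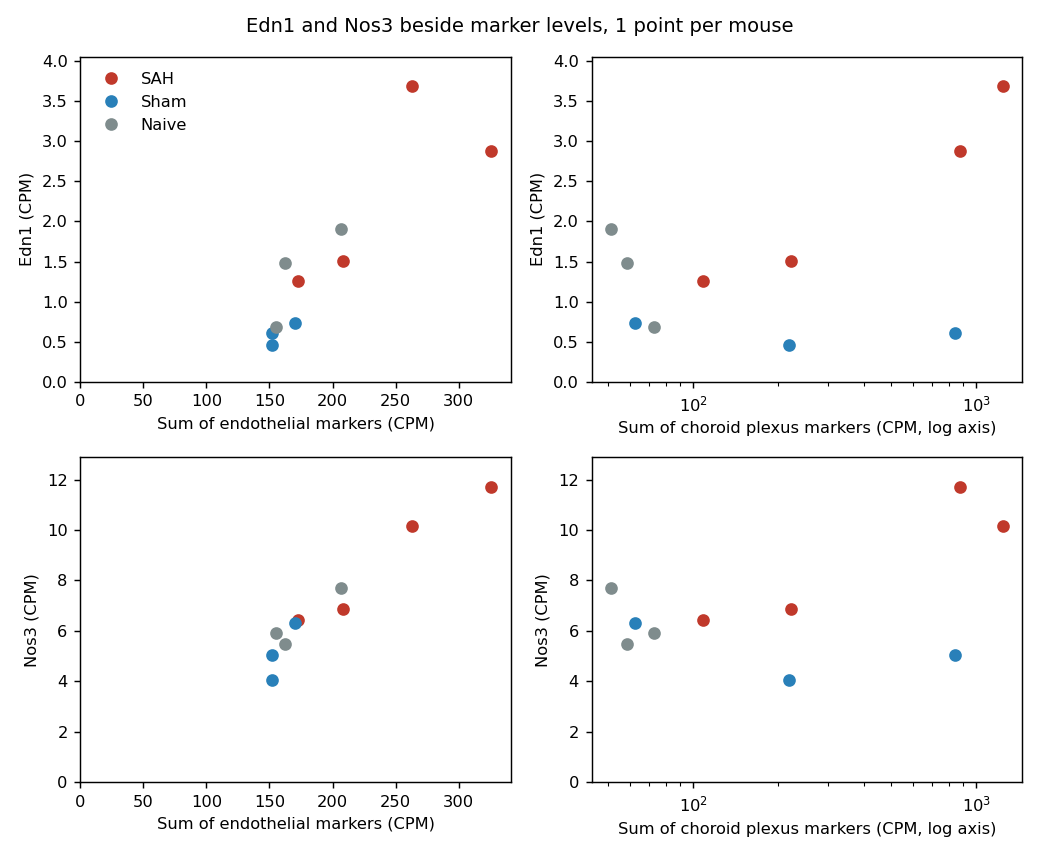
CPM of Edn1 and Nos3 in each mouse against the summed CPM of the endothelial markers and of the choroid plexus markers (log axis), with 1 point per mouse coloured by group. SAH mouse 4 has the highest endothelial sum (325.4) and the highest Nos3 (11.7), and Sham mouse 7 combines a high choroid plexus sum (841.1) with low Edn1 (0.603).

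Edn3 encodes endothelin-3, a peptide with preference for the type B receptor, on chromosome 2 from 174586259 to 174609543, plus strand. It was at 6.48, 7.25, 2.83 and 6.56 CPM in SAH, 4.99, 5.29 and 5.63 in Sham and 3.95, 5.55 and 4.71 in Naive mice. Of the SAH mice, 3 were above all 6 controls, and SAH mouse 3 was below all of them. The log2 fold change was 0.22 (95% interval -0.21 to 0.65), with an adjusted p of 0.608 by edgeR. Without SAH mouse 3 it was 0.44, with an adjusted p of 0.0707, which passed the threshold, and without SAH mouse 2 it was 0.087, with an adjusted p of 0.848. Without the 3 mice of highest choroid plexus markers it was 0.50, with an adjusted p of 0.106.

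The transcription start regions of the peptide genes are printed because Edn1 and Edn3 encode ligands of the same receptors and SAH mouse 3 was the highest of all mice for Edn1 and the lowest for Edn3. Each window runs from 250 bases before to 30 bases after the RefSeq start on GRCm38.p6, 5′ to 3′ on the plus strand, at chr13:42301226-42301505 for Edn1 and chr2:174760369-174760648 for Edn3. Capitals mark matches to the motifs searched.
Edn1: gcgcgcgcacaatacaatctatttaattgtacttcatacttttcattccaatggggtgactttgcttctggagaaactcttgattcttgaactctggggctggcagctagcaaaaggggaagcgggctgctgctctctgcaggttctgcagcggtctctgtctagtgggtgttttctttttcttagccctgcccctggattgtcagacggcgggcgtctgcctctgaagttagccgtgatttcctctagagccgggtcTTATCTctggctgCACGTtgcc
Edn3: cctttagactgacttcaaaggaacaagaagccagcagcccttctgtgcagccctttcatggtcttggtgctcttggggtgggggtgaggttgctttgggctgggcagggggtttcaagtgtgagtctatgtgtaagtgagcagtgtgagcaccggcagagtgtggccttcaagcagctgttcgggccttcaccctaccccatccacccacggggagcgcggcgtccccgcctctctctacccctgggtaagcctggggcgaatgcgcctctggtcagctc

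Both strands of the 300 bases from 250 before to 50 after the start were searched for 5 short motifs. These were the box named TATA, spelled TATAAA, the AP-1 site, spelled TGACTCA, the site of the blood and endothelial factors named GATA, spelled AGATAA, the core of the hypoxia response element, spelled ACGTG, and the Sp1 site, spelled GGGCGG. In the Edn1 window the AGATAA motif and the hypoxia core were each found at 1 place, on the minus strand just after the RefSeq start. The other 3 motifs were not found in this window. Sequence beyond the window was not searched, and the RefSeq start was not checked against the reads. Of 32851 RefSeq promoter windows, 11.2% held the first of these and 19.6% the hypoxia core. In the Edn3 window 0 of the 5 motifs were found. The TATA motif was in 13.6%, the AP-1 motif in 5.2% and the Sp1 motif in 35.7% of all windows. A match to these letters is not evidence of a bound site. Of the 10 genes, 9 had a RefSeq promoter entry, all but Nos3.

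Ece1 encodes the membrane protease that cuts big endothelin to the active peptide, on chromosome 4 from 137418152 to 137521144, plus strand. It was at 38.5 to 49.0 CPM in SAH and 38.8 to 47.9 CPM in control mice, so that the groups overlapped almost entirely. The log2 fold change was 0.065 (95% interval -0.084 to 0.21), with an adjusted p of 0.665 by edgeR.

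Ednra, the type A receptor through which endothelin-1 contracts smooth muscle, lies on chromosome 8 from 80186928 to 80248351, minus strand. It was at 5.90 to 8.31 CPM in SAH and 5.96 to 7.44 CPM in control mice. Its log2 fold change was 0.085 (95% interval -0.14 to 0.31; edgeR adjusted p = 0.715). Ednrb, the type B receptor, which in brain is also made by astrocytes, lies on chromosome 14 from 104213832 to 104243693, minus strand. It was at 59.9 to 78.7 CPM in SAH and 59.4 to 71.3 CPM in control mice, with a log2 fold change of 0.003 (95% interval -0.16 to 0.16; edgeR adjusted p = 0.992). The astrocyte markers beside it summed to 6158 to 7647 CPM in SAH and 6182 to 6659 CPM in control, and 1 of 9, Gfap, rose. The intervals of both receptors reach no further than 0.31 on the log2 scale in either direction.

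Nos1 encodes the neuronal nitric oxide synthase, which in hippocampus is found mostly in interneurons, on chromosome 5 from 118316848 to 118408849, plus strand. The mm9 reference annotation starts this gene further upstream, at 118231041, so reads from exons before the counted model may be missing from the Nos1 levels and from its level per kb. It was at 133, 149.7, 107.8 and 136.4 CPM in SAH, 159.1, 148.4 and 121.2 in Sham and 160.4, 189.7 and 147.1 in Naive mice. SAH mouse 3 was the lowest of all 10 and Naive mouse 9 the highest. SAH and Sham mice overlapped, and of the SAH mice only SAH mouse 2 reached the Naive range.

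The mean of Nos1 was 131.7 ± 17.5 CPM in SAH (SD, n = 4) and 154.3 ± 22.4 CPM in control (SD, n = 6). The log2 fold change was -0.23 with a standard error of 0.11 and a 95% interval of -0.45 to 0.002, and edgeR's adjusted p was 0.298. With the choroid plexus covariate it was -0.055, with an adjusted p of 0.966, and without the 3 mice of highest choroid plexus markers it was -0.18, with an adjusted p of 0.463. Without SAH mouse 3 alone it was -0.14. Inhibitory neuron markers summed to 852.3 to 924.6 CPM in SAH and 906.6 to 993.3 CPM in control, and 1 of 8, Sst, fell.

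Gucy1a3 and Gucy1b3 encode the alpha and beta subunits of soluble guanylyl cyclase, the receptor of nitric oxide, and lie on the minus strand of chromosome 3, from 81896349 to 81949799 and from 81835926 to 81878633. Gucy1a3 was at 35.4 to 50.05 CPM in SAH and 38.3 to 46.0 CPM in control mice, with a log2 fold change of -0.004 (95% interval -0.18 to 0.18; edgeR adjusted p = 0.988). Gucy1b3 was at 172.7 to 201.7 CPM in SAH and 168.5 to 182.9 CPM in control mice, with a log2 fold change of 0.045 (95% interval -0.054 to 0.14; edgeR adjusted p = 0.648). SAH mouse 1 was the highest of all 10 mice for both subunits. Pde5a, the cGMP-specific phosphodiesterase of smooth muscle, lies on the same chromosome from 122432076 to 122562292, plus strand. It was at 10.8 to 13.7 CPM in SAH and 12.1 to 13.1 CPM in control mice, with a log2 fold change of -0.015 (95% interval -0.18 to 0.14; edgeR adjusted p = 0.939).

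The pooled control joins mice with and without surgery, so each group was also compared with each other in a fit of the 3 groups across 15134 genes. These comparisons share mice, and each gene's values are given side by side. Against Sham mice, edgeR called 0 of the 10 genes and 0.720% of all genes. An unadjusted p under 0.05 was found for 2 of the 10 and 9.69% of all genes, while DESeq2 called 2 of the 10, Edn1 and Nos3, and 1.91% of the 15748 genes to which it gave an adjusted p. Against Naive mice edgeR called 0 of the 10 and 2.99% of all genes. An unadjusted p under 0.05 was found for 1 of the 10 and 14.8% of all genes, and DESeq2 called 0 of the 10 and 4.56% of 16126 genes. Between Sham and Naive mice edgeR called 0 of the 10 and 0.00661% of all genes, which is 1 gene, Slc13a4, named after its values were seen. An unadjusted p under 0.05 was found for 1 of the 10 and 305 of all genes, and DESeq2 called 0 of the 10 and 0.0102% of 19536 genes.

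The log2 fold change of Edn1 was largest against Sham mice, at 1.94 (standard error 0.44, 95% interval 0.97 to 2.90), a 3.83-fold difference, and an adjusted p of 0.105 by edgeR. The adjusted p was 0.00337 with DESeq2 and 0.0555 by edgeR with no filter on low counts. It also passed the threshold without SAH mouse 1 (2.13), SAH mouse 2 (2.11) or SAH mouse 3 (1.65). Against Naive mice it was 0.80 (95% interval -0.068 to 1.67; edgeR adjusted p = 0.375), and 0.46 to 1.11 leaving out 1 mouse, lowest without Naive mouse 8. Sham mice were at 0.598 ± 0.141 CPM and Naive mice at 1.36 ± 0.623 CPM (SD, n = 3 each), a log2 fold change of -1.13 between them (95% interval -2.20 to -0.066), with an unadjusted p of 0.0392 and an adjusted p of 1 by edgeR. Naive mouse 8, at 0.677 CPM, lay within the Sham range.

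Nos3 had a log2 fold change of 0.77 against Sham mice (95% interval 0.28 to 1.26; adjusted p = 0.223 by edgeR and 0.0539 by DESeq2) and of 0.47 against Naive mice (95% interval -0.009 to 0.95; edgeR adjusted p = 0.345). Leaving out 1 mouse, Nos3 ran from 0.60 to 0.95 against Sham mice and from 0.30 to 0.63 against Naive mice, lowest in both without SAH mouse 4. Nos1 had -0.12 against Sham mice (95% interval -0.37 to 0.14; edgeR adjusted p = 0.782), and -0.22 without Sham mouse 7 or -0.031 without SAH mouse 3. Against Naive mice Nos1 had -0.33 (95% interval -0.58 to -0.076), with an unadjusted p of 0.015 and an adjusted p of 0.203 by edgeR. Edn3 had 0.31 against Naive mice with an adjusted p of 0.594 by edgeR. It had 0.53 with an adjusted p of 0.0652 when SAH mouse 3 was left out, and 0.18 when SAH mouse 2 was left out.

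Full separation of 2 groups means that every mouse of one was above every mouse of the other. SAH and Sham mice were fully separated for 2 of the 10 genes, Edn1 and Nos3, against 9.48% of all genes. SAH and Naive mice were fully separated for 0 of the 10, against 13.8% of all genes. Sham and Naive mice were fully separated for 1, Pde5a, against 8.99% of all genes. Pde5a was at 12.9 to 13.1 CPM in Sham and 12.1 to 12.6 CPM in Naive mice, a log2 fold change of 0.065 (95% interval -0.14 to 0.28). The median log2 fold change of the 10 genes was 0.078 against Sham, 0.037 against Naive and -0.088 between Sham and Naive mice, while that of all genes lay between -0.002 and 0.

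A list of 76 other genes of the endothelin, nitric oxide and cGMP pathways was counted in the same fit of SAH against control. All 76 were among the gene names and 62 passed the filter. By edgeR 2 rose and 2 fell, against the 4.68% called among all genes tested, and 13 had an unadjusted p under 0.05, against 17.0% of all genes. Both counts lie near these background shares. The median log2 fold change was 0.038. Among genes not tested were Edn2, the remaining endothelin peptide, with at most 2 counts in any mouse, and the natriuretic peptide genes Nppa and Nppb, with at most 5 and 4 counts.

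Mylk, the myosin light chain kinase that sets off contraction, rose. It was at 24.0, 24.5, 25.9 and 25.4 CPM in SAH, 17.4, 19.8 and 18.8 in Sham and 18.1, 22.9 and 21.8 in Naive mice, so that all SAH mice were above all controls. The log2 fold change was 0.34 with a standard error of 0.076 and an adjusted p of 0.0319 by edgeR, and the call was lost without SAH mouse 4 (0.33) and without the 3 mice of highest choroid plexus markers (0.29, adjusted p = 0.228). Ppp1r14a, an inhibitor of myosin phosphatase, fell, with 8.94 to 11.4 CPM in SAH and 11.1 to 15.5 CPM in control mice, a log2 fold change of -0.37 and an adjusted p of 0.079 by edgeR. In this group of 18 tested genes of receptor signalling and contraction, these were the 2 that passed by edgeR. Gna12, a G protein subunit named here after its values were seen, had -0.26 with an adjusted p of 0.104 by edgeR and passed with DESeq2, with no filter on low counts, and without SAH mouse 1 or SAH mouse 2.

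Pln encodes phospholamban, an inhibitor of the calcium pump of muscle that protein kinases switch off. It was at 1.79, 1.62, 1.01 and 2.32 CPM in SAH, 1.24, 0.699 and 0.764 in Sham and 0.677, 0.977 and 0.424 in Naive mice, with Sham mouse 5 above SAH mouse 3. Pln rose, with a log2 fold change of 1.10, a standard error of 0.27 and an adjusted p of 0.0526 by edgeR. It was the 1 of 7 tested cGMP effectors that passed. Prkg2, a cGMP-dependent protein kinase, had -0.39 with an adjusted p of 0.244, and was at -0.23 without SAH mouse 4 and -0.11 without the 3 mice of highest choroid plexus markers. The Pln call was lost without SAH mouse 4 (0.90), Sham mouse 6 (1.06), Naive mouse 8 (1.05) or Naive mouse 10 (0.97), and without the 3 mice of highest choroid plexus markers (1.09, adjusted p = 0.123) or with the choroid plexus covariate (1.06, adjusted p = 0.267).

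Of 17 tested genes of nitric oxide synthesis and its control, 1 passed by edgeR. Qdpr, which regenerates the synthase cofactor tetrahydrobiopterin, fell. It was at 121.9 to 171.7 CPM in SAH and 173.8 to 221.8 CPM in control mice, with no overlap. Its log2 fold change was -0.34 with a standard error of 0.094 and an adjusted p of 0.0811 by edgeR. The call was also lost with library size alone (adjusted p = 0.102) and with a robust fit (adjusted p = 0.116). It held without SAH mouse 1 or 2 and ended when any 1 of the other 8 mice was left out, with values of -0.36 to -0.25. Without the 3 mice of highest choroid plexus markers Qdpr was at -0.099 with an adjusted p of 0.527, and Ppp1r14a at -0.19 with an adjusted p of 0.567. This setting leaves out SAH mouse 3 and SAH mouse 4, the lowest of all mice for both genes, so smaller differences were built in. With the choroid plexus covariate Qdpr was at -0.31 and Ppp1r14a at -0.35, both with an adjusted p of 0.361. For Ppp1r14a the call held on leaving out SAH mouse 1, SAH mouse 2 or Sham mouse 5, and leaving out any 1 of the other 7 ended it, at -0.38 to -0.30. Dlg4, a scaffold protein that binds Nos1 at synapses, had -0.11 with an adjusted p of 0.138 by edgeR and passed with DESeq2 (adjusted p = 0.0933) and without SAH mouse 1 or SAH mouse 2, at -0.13 each. Without the 3 mice of highest choroid plexus markers Dlg4 was at -0.049 (edgeR adjusted p = 0.735), and with the choroid plexus covariate at -0.08 (edgeR adjusted p = 0.721).

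In the other 3 groups 0 genes passed by edgeR. The natriuretic peptide arm (4 tested, 2 at an unadjusted p under 0.05) held the receptors Npr1, at 0.43 with an adjusted p of 0.204, and Npr3, at 0.27 with an adjusted p of 0.16. SAH mouse 3 had the highest Npr3 of all mice, 45.4 CPM, and without it Npr3 was at 0.13. Npr1 was at 0.24 with Sham mice alone as control and at 0.67 with Naive mice alone. With the choroid plexus covariate Npr1 was at 0.26 and Npr3 at 0.16. Without the 3 mice of highest choroid plexus markers they were at 0.25 and 0.15. Among 13 other cyclases and phosphodiesterases, with 1 at an unadjusted p under 0.05, the smallest p values were those of Pde1c, at -0.21, and Gucy2g, at 0.24, or 0.10 without SAH mouse 4. Of the 3 other endothelin genes tested, with 1 at an unadjusted p under 0.05, Bsg had 0.082 and Mme, a peptidase that degrades endothelin, 0.030. When only the Sham mice or only the Naive mice served as control, 0 of the 62 tested pathway genes passed by edgeR, with 7 and 9 at an unadjusted p under 0.05. With the pooled control DESeq2 called 0 genes in the last 3 groups as well, and 6 in the list as a whole, which were the 4 that edgeR called with Dlg4 and Gna12.

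**Figure D5:**
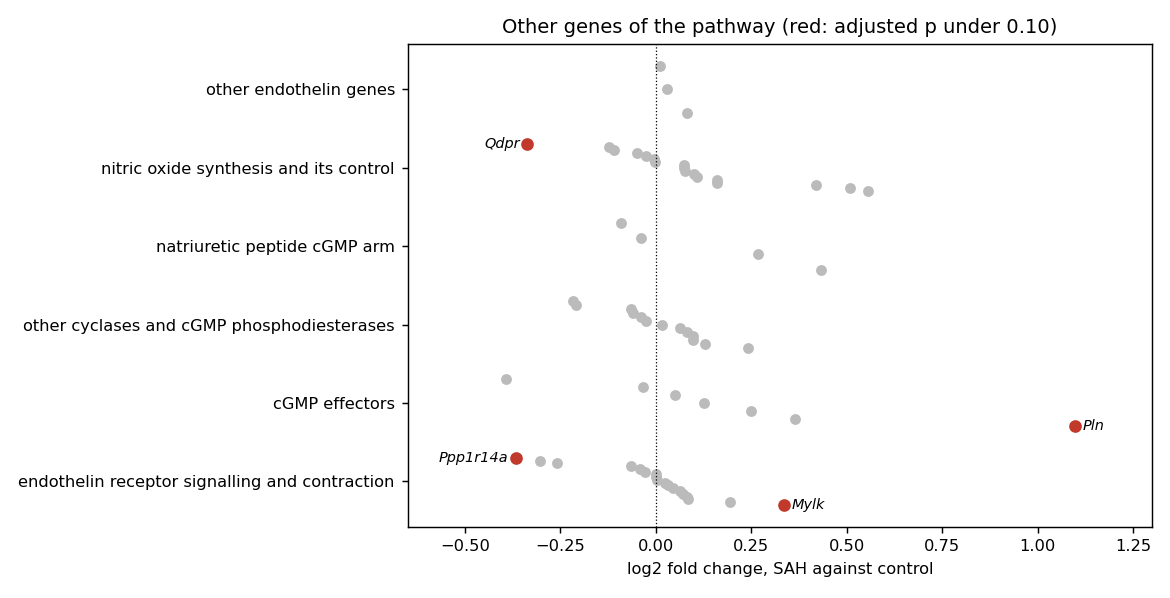
Log2 fold change of the 62 tested pathway genes in SAH against control, by role, with genes past an adjusted p of 0.10 in red. Mylk (0.34) and Pln (1.10) lie to the right of 0, Qdpr (-0.34) and Ppp1r14a (-0.37) to the left, and the other 58 genes did not pass.

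For each of the 10 genes, the genes most like it across the mice were those with the highest Pearson correlation of log2 CPM over all 10 mice, which share each library's depth and cell makeup. They are the top 3 picked from the 14993 genes tested. With only 10 mice, high values arise among unrelated genes too, so these neighbours are a description and shared regulation was not tested. Edn1 was nearest to Mylk (r = 0.933), Flt4 (0.927), a receptor of lymphatic and some vascular endothelium, and Adgrl4 (0.925), an endothelial adhesion receptor. Nos3 was nearest to Ptprb (0.966), an endothelial phosphatase, Frrs1l (0.954) and Lsr (0.952), a protein of cell junctions.

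The nearest genes of Nos1 were Xpo5 (0.973), Nomo1 (0.971) and the calcium channel gene Cacna1i (0.971). Those of Ednrb were Top2a (0.954) and Foxm1 (0.920), both genes of dividing cells, and Mgat4c (0.898). Edn3 was nearest to Akr1e1 (0.974), Zfp708 (0.936) and Map3k19 (0.931), and Ece1 to Bag3 (0.959), Klf4 (0.943) and Entpd6 (0.940). Ednra was nearest to Arhgap17 (0.904), Ticam2 (0.900) and Enox1 (0.892). The cyclase subunits were nearest to Xxylt1 (0.950), Lig1 (0.940) and Dok5 (0.929) for Gucy1a3 and to Ywhab (0.942) and Ghitm (0.930) for Gucy1b3. Pde5a was nearest to Ifi203 (0.952), Tsga10 (0.952) and Cnot3 (0.950).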

How the data were processed

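The authors aligned read pairs of 50 bases to mm9 with STAR and counted uniquely mapped pairs per gene name with featureCounts 1.6.2, by strand, over the merged exons of the UCSC annotation. The deposited values are raw counts, 1 table per mouse, and were checked to be whole numbers. From them CPM, log2 CPM (prior count 2) and the tests were computed with edgeR 4.0.16 in R 4.3.3 (TMM, filterByExpr with minimum count 10 and minimum total count 15, quasi-likelihood test, Benjamini-Hochberg adjustment over all genes tested, threshold 0.10). DESeq2 1.42.0, the tool of the study, was an alternative. The p-values test a difference between groups against the spread between mice.

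The 10 genes, the pathway list and the marker lists were chosen with earlier results of these data known. Named were the 10 genes, pathway genes past the threshold or among the 2 with the smallest p of their group, the 3 nearest genes of each of the 10, and markers that passed. Marker lists for microglia (Csf1r rose) and red blood cells (1 of 5 tested, Alas2, at a log2 fold change of 0.36, and 4 globin names at 0 counts in every mouse) were also read. Promoter windows came from RefSeq (GRCm38.p6), where Gucy1a3 and Gucy1b3 are listed as Gucy1a1 and Gucy1b1. No coordinates were converted between builds. Some genes that these rules name are not reported here.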

Additional observations from a re-analysis of the deposited data

Results flagged for a closer look

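Of 20 sets of values (10 genes, each in the 4 SAH mice and in the 6 control mice), 1 had a mouse far from the others. This was Ece1 in Naive mouse 9, at 47.9 CPM the highest of the 6 control mice. Chance flags about 1 in 20 sets, which is the share seen here. Without this mouse the log2 fold change of Ece1 in SAH against control was 0.11, with an adjusted p of 0.476 by edgeR, and with it 0.065, with an adjusted p of 0.665.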

How the results depend on the processing

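No paired analysis was possible because the groups are made up of different mice, which the study assigned at random. Of 1004 log2 fold changes of named genes recomputed under an alternative, 901 kept their direction and side of the threshold, 22 newly passed it, 40 no longer did and 41 changed sign, each of them of a gene that did not pass. The causes were not tested.

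For SAH against control, the count of the 10 genes called, 0 with edgeR, was 2 with DESeq2, 2 with no filter on low counts, 1 with Sham and Naive averaged at equal weight and 0 to 2 leaving out 1 mouse. Against Sham it was 2 with DESeq2, 1 with no filter and 0 to 1 leaving out 1 mouse, and against Naive 0 to 1. The count of pathway genes called, 4, was 1 at an adjusted p under 0.05, 0 with Sham mice alone as control, 0 with Naive mice alone, 1 with the choroid plexus covariate, 0 without the 3 mice of highest choroid plexus markers (chosen after seeing the data) and 0 to 6 leaving out 1 mouse.

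The count of all genes called in SAH against control, 701, was 369 at an adjusted p under 0.05, 12 with Sham mice alone, 282 with Naive mice alone, 184 with the covariate, 330 without the 3 mice and 308 to 1093 leaving out 1 mouse, lowest without SAH mouse 4 and highest without SAH mouse 2. Against Sham, 109 became 300 with DESeq2, 182 with no filter, 49 at an adjusted p under 0.05 and 6 (without Sham mouse 6) to 215 (without SAH mouse 3) leaving out 1 mouse. Against Naive, 453 became 735 with DESeq2, 260 at an adjusted p under 0.05 and 109 (without Naive mouse 8) to 683 (without SAH mouse 2). Between Sham and Naive, 1 became 2 with DESeq2, 3 in a fit of these mice only and 0 to 1 leaving out 1 mouse.

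The changes of sign in SAH against control, all in log2 fold changes near 0, were Ece1 at -0.052 without the 3 mice, Ednra at -0.0097 with the covariate, Ednrb at -0.038 with Naive mice alone, Gucy1a3 at 0.002 with library size alone, 0.04 with Sham mice alone, 0.089 with the covariate and 0.089 without the 3 mice, Pde5a at 0.019 with Naive mice alone and 0.03 without the 3 mice, and Mme at -0.015 with the covariate. Leaving out 1 mouse, Ednra ran from -0.0099 to 0.16, Ednrb from -0.077 to 0.057, Gucy1a3 from -0.097 to 0.07, Gucy1b3 from -0.0043 to 0.073, Pde5a from -0.06 to 0.052 and Mme from -0.0065 to 0.051. Against Sham, Ednrb ran from -0.034 to 0.11, Gucy1a3 from -0.052 to 0.12, Gucy1b3 from -0.017 to 0.06 and Pde5a from -0.092 to 0.02. Against Naive, Ece1 ran from -0.042 to 0.086, Ednra from -0.036 to 0.13, Ednrb from -0.12 to 0.014, Gucy1a3 from -0.14 to 0.026 and Pde5a from -0.027 to 0.086. Between Sham and Naive, Ednra ran from -0.16 to 0.0082 and Gucy1b3 from -0.0053 to 0.055.

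With 11 to 73 counts per mouse, Edn1 rests on the fewest reads of the 10 genes, and the pathway gene Pln, at 0.424 to 2.32 CPM, on similarly few.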
